A study of Homo sapiens with 36 samples.

Results

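The long noncoding RNAs described here are the expressed members of the LINC series in Jurkat, a cell line from a human T-cell leukaemia. LINC followed by digits is the systematic symbol given to a long intergenic noncoding RNA that has no established functional name. Members were selected on their level alone: a symbol of this form and a mean of at least 5 CPM (the count scaled to the library total, in the field's usual per-library unit) over all 36 libraries, without LINC01882 and LINC02324. The rule kept 109 of the 2188 LINC rows in the table of 74628 genes, and 1657 of those rows had at least 1 count. The mean level therefore describes the choice and is not a finding. The threshold used no comparison between days or guides, but the members were chosen with earlier results of these data known.

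Long intergenic noncoding RNAs are transcribed by RNA polymerase II, and most are capped and spliced like messenger RNAs. Many are retained in the nucleus and are turned over faster than messenger RNAs, so that their level can move quickly with transcription. Some act on chromatin, on splicing or on the stability of other RNAs, a few contain short open reading frames that are translated, and most have no known function. Their expression is often restricted to a few cell types.

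All cells carried dCas9-VP64, a Cas9 without nuclease activity that is fused to a transcriptional activator (CRISPR activation), and the genotype label also lists mCherry+. They received a lentiviral vector with either a guide against RELA (sgRELA), a subunit of the transcription factor NF-kappaB, or a non-targeting guide (sgControl), and were selected with puromycin. RNA was taken on days 5, 6 and 7 after transduction, with 3 biological replicates per guide and day and 2 library replicates of each of the 18 RNA samples, made by RamDA-seq, a random-primed total RNA method, from 100 pg of RNA. Each guide is 1 sequence as far as the labels say, all groups share the dCas9-VP64 line, the vector and the selection, and no untransduced cells were analysed here. The labels give no processing batch, so day and batch cannot be told apart.

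Totals ran from 7586205 to 16124473 counts per library and from 18769530 to 29503934 per RNA sample after the 2 library replicates were added. RELA stood at 119.8 to 318.5 CPM in the sgRELA samples and at 20.2 to 39.3 CPM in the sgControl samples, so each sample fitted its guide label. All 11 T-lymphocyte markers checked were above 1 CPM (summed level 2484 to 5018 CPM over the 36 libraries), while the 4 monocyte markers summed to at most 4.69 CPM and the 4 epithelial or packaging-line markers to at most 3.29 CPM. Of 4 B cell markers only CD79A was above 1 CPM on average (9.71 to 66.5 CPM), and of 3 fibroblast markers only COL1A1 was (1.76 to 21.0 CPM), with COL1A2 at 0 in all libraries.

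The promoters of 4 members are shown because, among members with a RefSeq entry that changed from day 5 to day 7 with both guides, they had the smallest p in sgControl in each direction: LINC00641 and LINC01550 were higher on day 7 than on day 5 with both guides, and LINC02275 and LINC00513 were lower. Each is the RefSeq window from 250 bases before to 50 bases after the annotated start, on the strand of the gene, in GRCh38.p14. Of the 109 members, 70 had an entry, and these held 80 windows. LINC01963 and LINC00342, which also rose, were not among them. Capitals mark matches to 4 motifs searched on both strands: CARE (TGATGNAA, bound by ATF4 in the integrated stress response), the hypoxia response core HRE (ACGTG), the heat shock element HSE (GAANNTTC) and the kappaB motif of the NF-kappaB family.
LINC00641: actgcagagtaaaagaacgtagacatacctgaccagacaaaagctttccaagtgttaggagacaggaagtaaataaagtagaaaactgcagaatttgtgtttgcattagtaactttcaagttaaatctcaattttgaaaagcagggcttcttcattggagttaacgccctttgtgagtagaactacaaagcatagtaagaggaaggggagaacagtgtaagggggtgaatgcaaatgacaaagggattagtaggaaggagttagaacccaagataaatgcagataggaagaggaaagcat
LINC01550: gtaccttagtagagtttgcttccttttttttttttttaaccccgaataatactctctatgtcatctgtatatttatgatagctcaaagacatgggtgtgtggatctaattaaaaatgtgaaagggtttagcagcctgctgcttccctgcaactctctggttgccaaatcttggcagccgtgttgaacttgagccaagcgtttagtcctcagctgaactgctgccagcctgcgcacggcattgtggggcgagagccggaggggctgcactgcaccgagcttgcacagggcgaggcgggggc
LINC02275: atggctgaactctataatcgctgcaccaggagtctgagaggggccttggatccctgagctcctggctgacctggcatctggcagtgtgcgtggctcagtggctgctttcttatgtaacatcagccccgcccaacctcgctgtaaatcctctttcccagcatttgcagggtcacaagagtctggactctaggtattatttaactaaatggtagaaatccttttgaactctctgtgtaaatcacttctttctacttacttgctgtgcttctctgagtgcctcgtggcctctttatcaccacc
LINC00513: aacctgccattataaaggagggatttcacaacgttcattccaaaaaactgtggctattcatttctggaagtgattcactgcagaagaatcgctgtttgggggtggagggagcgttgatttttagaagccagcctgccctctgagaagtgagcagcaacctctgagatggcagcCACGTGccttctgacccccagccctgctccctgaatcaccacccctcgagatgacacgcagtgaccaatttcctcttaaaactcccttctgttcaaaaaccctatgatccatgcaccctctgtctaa
The windows lie at chr14:21206851-21207150 (minus strand), chr14:97978075-97978374 (minus strand), chr4:169975853-169976152 (minus strand) and chr7:130913214-130913513 (plus strand). The LINC00513 window starts inside the gene as GENCODE release 29 draws it, so it belongs to another of its start sites. None of the 4 windows held a kappaB, CARE or HSE match. LINC00513 held the palindrome CACGTG, which is 1 ACGTG match on each strand, overlapping. Among all 35116 RefSeq windows 21.4% held ACGTG, 11.3% the kappaB motif, 6.77% the HSE and 3.62% the CARE. Among the 80 windows of members the shares were 30.0%, 5.00%, 10.0% and 1.25%. A match is a string of letters and says nothing of binding.

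Most members were scarce. Their median level was 15.9 CPM, 75 were at 10 CPM or more, 11 at 50 or more and 3 at 100 or more, namely LINC00342 (133.5 CPM), LINC01226 (110.3 CPM) and LINC01355 (104.8 CPM). The members just above the threshold were LINC00888 (5.03 CPM), LINC01366 (5.06 CPM) and LINC00216 (5.07 CPM), and the rows just below it were LINC02806 (4.96 CPM), LINC00882 (4.96 CPM) and LINC03015 (4.91 CPM). In every library 108 members had a count above 0, and 1 member was at 0 in 1 library. On a scale per kilobase of exon, LINC01237 was highest at 56.3 CPM per kb, followed by LINC00342 (51.0), LINC01222 (37.6), LINC01766 (36.0), LINC01473 (34.9) and LINC00115 (34.3), all in CPM per kb.

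Of the 109 members, 103 were found in GENCODE release 29 (GRCh38), and 6 were not: LINC00680, LINC00869, LINC00888, LINC01145, LINC03006 and LINC03009. Of the 103, 74 were typed as lincRNA, 13 as processed transcript and 11 as antisense, and 2 were typed as protein coding. Exons of 33 overlapped exons of another gene and 70 had no such overlap, with 25 overlapping a gene on the opposite strand. The strand setting of the counting is not given in the sources used here, so reads of those 25 and of their partners cannot be told apart. Only 8 members started within 1000 bases of the start of a protein-coding gene, 6 of them in the divergent layout.

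The measurement of single members was noisy. Between the libraries of one RNA sample, the SD of log2(CPM + 0.5) had a median of 0.37 over members and ranged from 0.12 to 0.92. It was widest for LINC02649 (0.92), LINC02930 (0.86) and LINC00921 (0.85), all near 5 to 7 CPM. The median biological coefficient of variation was 18.7% for members against 13.5% for all genes of at least 5 CPM. Apart from that threshold, these lists were not matched for level. The standard error of a log2 fold change between days had a median of 0.12 for members of at least 50 CPM and 0.33 for members under 10 CPM.

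As a group, the members took their largest share of the counts on day 6 with both guides. In the sgControl samples the share was 0.2203, 0.2234 and 0.2206% on day 5, 0.3059, 0.3005 and 0.3132% on day 6 and 0.2398, 0.2434 and 0.2420% on day 7. In the sgRELA samples it was 0.2284, 0.2283 and 0.2227% on day 5, 0.2991, 0.2981 and 0.2982% on day 6 and 0.2415, 0.2444 and 0.2483% on day 7. Every sample of day 6 lay above every sample of the other days, and the day 7 samples lay above the day 5 samples. The share without the 6 members of highest count was also highest on day 6, with a library median of 0.2312% in sgRELA against 0.1825% on day 7.

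**Figure D1:**
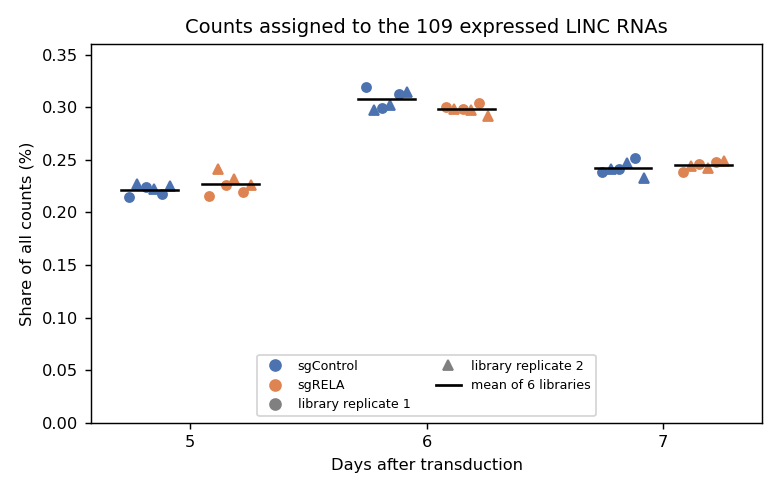
Share of all counts that was assigned to the 109 expressed LINC RNAs, in percent (vertical axis, from 0), by days after transduction, for each of the 36 libraries. Colours give the guide, marker shapes the library replicate and black lines the mean of 6 libraries; the day 6 libraries run from 0.2918 to 0.3195% and no library of day 5 or 7 exceeds 0.2518%.

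The composition of the libraries moved along with it. The median share of the other LINC rows was 0.0532, 0.0678 and 0.0518% in sgControl on days 5, 6 and 7, and that of other long noncoding genes was 2.87, 3.56 and 3.11%. The median share of protein-coding genes outside the mitochondrion was 86.6, 84.3 and 86.5% in sgControl over the same days, and that of mitochondrial genes was 7.70, 9.09 and 7.65%. The part of these shifts in the members' change was not tested. In bulk RNA, fewer cells that express an RNA and less of it per cell cannot be told apart.

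Of the 109 members, 24 rose from day 5 to day 6 and 1 fell in sgControl, and 23 rose and 1 fell in sgRELA, by edgeR's quasi-likelihood test at a Benjamini-Hochberg adjusted p under 0.05 over all genes tested. The median log2 fold change over members was 0.35 in sgControl and 0.30 in sgRELA, beside 0.04 and 0.03 over all 27553 genes tested. Of all genes tested, 8.87% passed in sgControl and 6.91% in sgRELA. Of the 12541 genes of at least 5 CPM, the level at which members were chosen, 5.96% were called higher and 11.8% lower in sgControl, and 4.9% higher and 9.34% lower in sgRELA. Among other long noncoding genes of that level, 147 of 1009 rose and 20 fell in sgControl, and among protein-coding genes 499 of 10535 rose and 1444 fell. The members thus moved in the direction of the other long noncoding genes, and no test compared the lists. With library 1 of each RNA sample alone 6 and 4 members were called (sgControl and sgRELA), and with library 2 alone 14 and 8. Those fits hold fewer counts per sample, and the share of all genes called in them is not given here. The sgRELA count was 14 without sgRELA day 5 replicate 3, 13 without sgRELA day 6 replicate 2 and 15 without sgRELA day 6 replicate 3.

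The rise was present in members with and without overlapping annotation. Of the 70 members whose exons overlap no other gene, 15 rose and none fell in sgControl, and 19 rose and 1 fell in sgRELA. Of the 33 with such an overlap, 8 rose and 1 fell in sgControl, and 4 rose and none fell in sgRELA. Of the 13 members with a single exon block, 4 rose in sgControl and 5 in sgRELA. Of the 90 with several exon blocks, 19 rose and 1 fell in sgControl, and 18 rose and 1 fell in sgRELA. Over all day comparisons, 58 members (53.2%) were called at least once and 51 in none, beside 52.3% of the genes of at least 5 CPM called at least once.

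**Figure D2:**
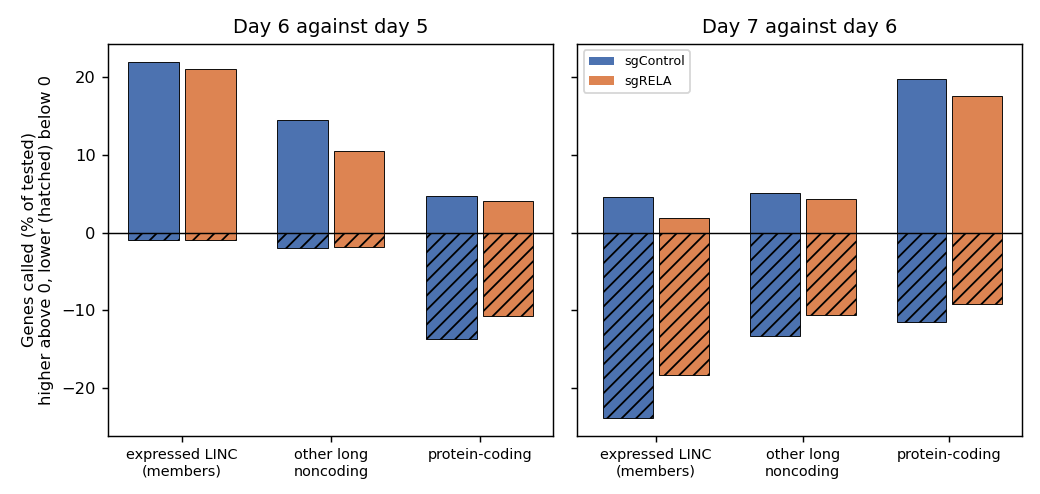
Genes called higher (plain bars above 0) or lower (hatched bars below 0), as a percentage of the genes tested in each class, all of at least 5 CPM, for day 6 against day 5 and day 7 against day 6. Bars of the members and of other long noncoding genes point mainly up to day 6 and down to day 7, and those of protein-coding genes point the other way (sgControl, day 6 against day 5: 24 up and 1 down of 109 members, 499 up and 1444 down of 10535 protein-coding genes).

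LINC01550 had the smallest p among the members that rose from day 5 to day 6 in sgControl. It stood at 28.4, 26.6 and 26.6 CPM on day 5, at 51.7, 61.9 and 52.0 CPM on day 6 and at 39.5, 40.8 and 41.5 CPM on day 7 in sgControl. In sgRELA it stood at 29.5, 33.2 and 31.5, then 63.8, 66.3 and 68.6, then 51.1, 40.9 and 40.8 CPM. The 3 days did not overlap within either guide. The rise to day 6 was 1.02 ± 0.13 on the log2 scale (SE, 3 samples against 3) in sgControl and 1.08 ± 0.13 in sgRELA, with adjusted p-values of 2.35e-06 and 8.11e-07 by edgeR. The gene lies on chromosome 14 (97925610 to 97978124, minus strand) with no exon of another gene over it, and was the only member to pass in all 6 day comparisons.

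LINC01222, on chromosome 1 (199006040 to 199021037, minus strand), was also highest on day 6. It stood at 54.6, 46.7 and 50.7 CPM on day 5, 72.3, 86.2 and 86.5 CPM on day 6 and 60.8, 64.2 and 60.9 CPM on day 7 in sgControl. The sgRELA samples were at 50.2, 52.0 and 44.0, then 97.7, 101.2 and 94.9, then 69.4, 56.0 and 63.6 CPM. Day 6 lay above both other days in each guide, by 0.69 ± 0.11 and 1.01 ± 0.11 on the log2 scale over day 5 (adjusted p = 0.000107 and 4.07e-07, edgeR). The nearest protein-coding gene by start site is PTPRC, 382580 bases away. PTPRC gave 0.19 in sgControl (adjusted p = 0.113) and 0.44 in sgRELA (0.000152, edgeR), the latter a call in the direction of LINC01222. To day 7 PTPRC gave -0.14 (0.247) and -0.36 (0.000706, edgeR). LINC01221 (199016133 to 199076735, plus strand) overlaps the LINC01222 gene on the other strand without sharing exon bases. Its rise to day 6 passed in sgRELA (1.15 ± 0.21, adjusted p = 0.000474, edgeR), and in sgControl it was 0.61 ± 0.21 with an adjusted p of 0.0647.

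LINC00649, LINC01237 and LINC00938 rose from day 5 to day 6 with both guides. LINC00649 went from 64.99 ± 4.5 to 102.5 ± 7.6 CPM in sgControl and from 60.0 ± 5.2 to 104.1 ± 4.4 CPM in sgRELA (mean ± SD, n = 3). LINC01237 went from 69.6 ± 5.4 to 107.9 ± 3.8 CPM and from 70.1 ± 9.2 to 106.6 ± 5.3 CPM. LINC00938 went from 40.2 ± 5.7 to 68.1 ± 10.7 CPM and from 36.1 ± 1.7 to 68.8 ± 7.4 CPM. None of these 3 had overlapping groups, and their 6 log2 changes lay between 0.61 and 0.93 with SEs of 0.11 to 0.15. LINC00649 shares exon bases with ATP5PO on the opposite strand. The log2 change of ATP5PO was -0.29 in sgControl and -0.12 in sgRELA, and neither passed (adjusted p = 0.127 and 0.687, edgeR). LINC00938 starts 1890 bases from ARID2 in the divergent layout. ARID2 gave -0.20 in sgControl (adjusted p = 0.132) and -0.28 in sgRELA (adjusted p = 0.0298, edgeR), a call opposite to that of LINC00938.

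In all, 15 members rose from day 5 to day 6 with both guides, which is 60% of the sgControl calls and 62.5% of the sgRELA calls. Of the genes of at least 5 CPM, 2.72% were called higher and 6.5% lower with both guides, and the calls shared by both guides were 51.8% of the sgControl calls and 64.7% of the sgRELA calls. Beside the 5 above they were LINC00426, LINC00467, LINC00470, LINC01341, LINC01355, LINC01963, LINC02035, LINC02250, LINC02614 and LINC02982. In each fit that left out 1 of the replicates compared, 7 of the 15 passed with both guides, namely LINC00649, LINC00938, LINC01222, LINC01237, LINC01355, LINC01550 and LINC01963. LINC00467 is among the LINC transcripts known to encode a micropeptide, and its log2 changes were 0.99 and 0.84, the latter with an adjusted p of up to 0.135 when a replicate was left out (edgeR). The largest rise in sgControl was that of LINC02250 (1.73), and in sgRELA its change was 1.21, a call lost in 4 of 6 such fits. The exceptions in direction were LINC00624 in sgControl, with a log2 change of -0.68, and LINC02706 in sgRELA, with -1.14. Over the 109 members the changes with the 2 guides had a Pearson r of 0.65. Those points share day and library preparation, and genes are not independent replicates.

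**Figure D3:**
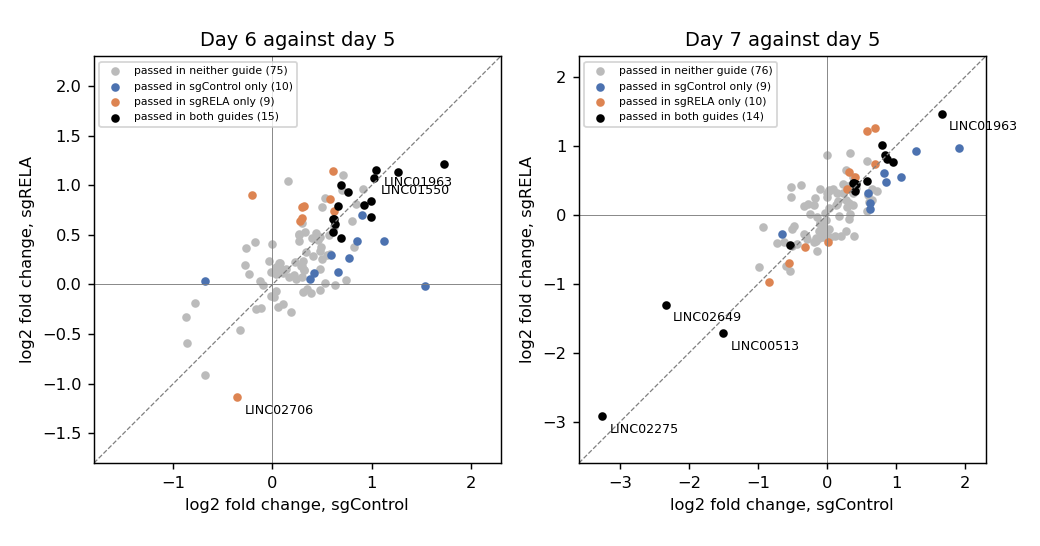
Log2 fold change of each of the 109 members in sgControl (horizontal axis) and in sgRELA (vertical axis), for day 6 against day 5 and day 7 against day 5. Colours show with which guide the member passed the test, and the dashed line marks equal change; most points lie up and right of 0 on day 6, and LINC02275, LINC02649 and LINC00513 lie lowest on day 7.

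From day 6 to day 7 most members that changed fell. In sgControl 26 fell and 5 rose, and in sgRELA 20 fell and 2 rose, with medians over members of -0.25 and -0.22 on the log2 scale beside -0.07 and -0.06 over all genes tested. The backgrounds were 14.6% of all genes tested in sgControl and 12.2% in sgRELA. Of the genes of at least 5 CPM, 17.4% were higher and 11.4% lower in sgControl, and 15.4% higher and 9.12% lower in sgRELA. The sgControl count was 20 without sgControl day 7 replicate 1 and also 20 without sgControl day 7 replicate 2. With both guides, 15 members fell and 1 rose, beside 5.98% lower and 12.6% higher of the genes of at least 5 CPM. Those that fell were LINC00174, LINC00426, LINC00513, LINC00680, LINC00938, LINC00963, LINC01138, LINC01222, LINC01376, LINC01473, LINC01550, LINC01801, LINC02275, LINC02614 and LINC02615. In each fit that left out 1 of the replicates compared, 6 of them passed with both guides, namely LINC00426, LINC00513, LINC01138, LINC01376, LINC01473 and LINC02275. This comparison shares its day 6 samples with the one before, so a high value on day 6 enters both.

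LINC01376 and LINC01138 fell with both guides. LINC01376 was at 20.7, 28.8 and 24.9 CPM on day 6 and at 10.9, 10.96 and 7.855 CPM on day 7 in sgControl, a change of -1.33 ± 0.20, and the change in sgRELA was -0.96 ± 0.20 (adjusted p = 1.12e-05 and 0.000992, edgeR). LINC01138 was at 43.6, 27.2 and 34.3 CPM on day 6 and at 19.3, 13.8 and 16.3 CPM on day 7 in sgControl, a change of -1.09 ± 0.19, and the change in sgRELA was -0.80 ± 0.18. Neither had overlapping groups. LINC01138 has exon overlap with 5 other annotated loci, so its counts are uncertain. LINC00938 fell by 0.86 and 0.56 on the log2 scale, the latter with an adjusted p of 0.00904 that became 0.0935 without sgRELA day 7 replicate 2 and 0.0685 without sgRELA day 6 replicate 3 (edgeR).

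LINC02706 was the only member to rise from day 6 to day 7 with both guides. It was low, at 2.11, 4.29 and 3.37 CPM on day 6 and 6.83, 9.37 and 4.50 CPM on day 7 in sgControl. In sgRELA it went from 4.39, 2.78 and 2.67 CPM to 7.61, 9.10 and 10.9 CPM. The changes were 1.08 ± 0.34 and 1.48 ± 0.35. The sgControl call had an adjusted p of 0.0311 and was lost in 4 of 6 fits that left out a replicate, with adjusted p-values of up to 0.207 (edgeR).

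A rise to day 6 followed by a fall to day 7, both past the test, was seen in 12 members with sgControl, 9 with sgRELA and 5 with both, namely LINC01222, LINC00938, LINC01550, LINC00426 and LINC02614. Of the genes of at least 5 CPM, 2.18%, 1.5% and 0.821% did so. LINC01221 did so in sgRELA, where it fell by 0.94 to day 7. The highest group mean lay on day 6 for 68 members (62.4%) in sgControl and 65 (59.6%) in sgRELA, beside 30.7% and 29.2% of the genes of at least 5 CPM. For LINC01550 the fall was -0.44 ± 0.12 in sgControl and -0.58 ± 0.12 in sgRELA, and for LINC01222 it was -0.40 ± 0.11 and -0.64 ± 0.11. The sgControl falls of these 2 had adjusted p-values of 0.0132 and 0.0127 (edgeR) and did not pass in every fit that left out a replicate. Without sgControl day 6 replicate 2 they had adjusted p-values of 0.107 and 0.0653, and without sgControl day 7 replicate 1 of 0.0566 and 0.0532 (edgeR). For LINC01222 the call was also lost without sgControl day 6 replicate 3 (0.0757) and day 7 replicate 3 (0.0558).

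LINC00426 and LINC02614 were called on the same steps and are shown because they complete the set of 5. In sgControl LINC00426 was at 18.3, 16.9 and 13 CPM on day 5, 23.8, 23.1 and 26.7 CPM on day 6 and 15.5, 15.2 and 15.7 CPM on day 7, with day 6 above all other samples. In sgRELA it was at 18.0, 19.9 and 25.7, then 30.7, 36.3 and 33.6, then 15.8, 16.8 and 18.5 CPM. Its rises were lost in 2 and 3 of 6 fits that left out a replicate (adjusted p of up to 0.153 and 0.104, edgeR), and its falls in none. LINC02614 in sgControl went from 13.6, 10.8 and 17.4 CPM to 25.1, 29.9 and 28.0 CPM and then to 18.0, 14.7 and 14.3 CPM. Its sgRELA samples were at 17.5, 12.3 and 13.5, then 21.1, 23.7 and 24.3, then 10.2, 18.1 and 14.3 CPM, and the sgRELA calls were lost in 5 of 6 such fits for the rise and 4 of 6 for the fall.

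**Figure D4:**
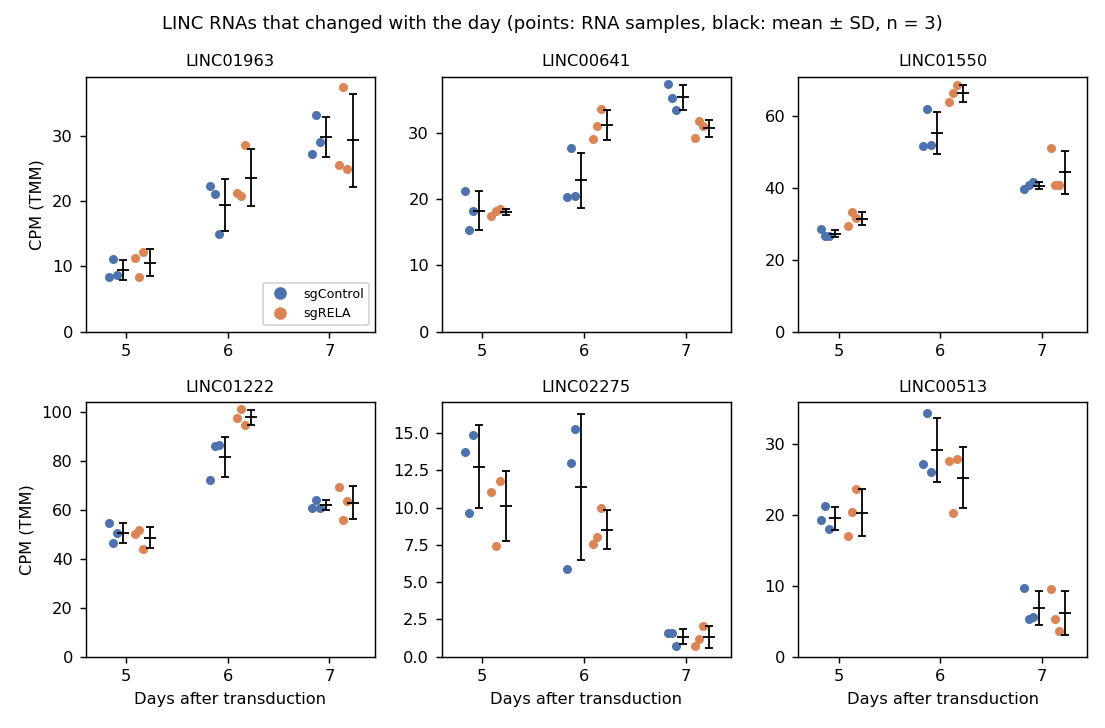
Level of 6 members in CPM after TMM scaling (vertical axes, from 0) by days after transduction, with 1 point per RNA sample and mean ± SD of 3 samples in black. LINC01963 and LINC00641 are lowest on day 5, LINC01550 and LINC01222 are highest on day 6, and LINC02275 and LINC00513 are lowest on day 7 (LINC02275 at 0.709 to 2.10 CPM).

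Between the ends of the series, day 7 against day 5, 18 members rose and 5 fell in sgControl and 16 rose and 8 fell in sgRELA. The backgrounds were 13% of all genes tested in sgControl and 12.4% in sgRELA. Of the genes of at least 5 CPM, 13.2% were higher and 12.1% lower in sgControl, and 12.8% higher and 11.6% lower in sgRELA. The median over members was 0.12 in sgControl and 0.15 in sgRELA, beside -0.01 in each over all genes tested. The sgRELA count was 15 without sgRELA day 5 replicate 2, without sgRELA day 5 replicate 3 and without sgRELA day 7 replicate 2. With both guides 10 members (9.17%) rose and 4 (3.67%) fell, beside 9.43% and 7.72% of the genes of at least 5 CPM, so the members' shares were near or below the background. The members' changes with the 2 guides had a Pearson r of 0.84 across the 109 members.

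LINC01963 had the largest rise among those with both guides. In sgControl it stood at 8.38, 11.2 and 8.72 CPM on day 5, 22.3, 21.1 and 14.98 CPM on day 6 and 27.3, 33.3 and 29.2 CPM on day 7. In sgRELA it stood at 11.3, 8.32 and 12.2, then 21.4, 20.9 and 28.7, then 25.5, 37.6 and 25.0 CPM. Days 5 and 7 did not overlap, and the log2 change was 1.67 ± 0.21 in sgControl and 1.47 ± 0.21 in sgRELA (adjusted p = 1.3e-06 and 7.49e-06, edgeR). The gene is a single exon on chromosome 2 (216217045 to 216220192, plus strand). Its nearest protein-coding gene by start site is XRCC5, a subunit of the Ku DNA end-binding protein, 109581 bases away, which gave 0.79 and 0.75 in the same comparisons. From day 5 to day 6, where LINC01963 rose, XRCC5 gave -0.26 in sgControl (adjusted p = 0.0157, edgeR) and -0.14 in sgRELA (0.303).

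LINC00641 was at 21.2, 15.3 and 18.2 CPM on day 5 and at 37.3, 35.3 and 33.4 CPM on day 7 in sgControl. In sgRELA it was at 17.5, 18.2 and 18.4 CPM on day 5 and at 29.3, 31.8 and 31.0 CPM on day 7. The log2 rises were 0.95 ± 0.16 and 0.76 ± 0.16 (adjusted p = 7.26e-05 and 0.00105, edgeR). The samples of day 6 lay at 20.3, 27.7 and 20.5 CPM in sgControl, overlapping day 5, and at 29.1, 31.0 and 33.6 CPM in sgRELA, overlapping day 7. That difference in timing was not a call, since no member passed the test of a day effect differing between the guides.

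LINC00342, the member of highest mean CPM, rose from 113.3 ± 2.1 to 148.5 ± 1.5 CPM in sgControl and from 114.7 ± 4.8 to 158.6 ± 12.97 CPM in sgRELA (mean ± SD, n = 3). These were log2 changes of 0.39 ± 0.09 and 0.47 ± 0.09, with adjusted p-values of 0.00179 and 0.000244 (edgeR). The rises of LINC01550 (0.58 and 0.50), LINC00649 (0.41 and 0.45) and LINC01237 (0.41 and 0.35) left them below their day 6 means. LINC00852 went from 12.2 ± 3.4 to 22.2 ± 4.4 CPM and from 12.2 ± 1.5 to 21.3 ± 5.1 CPM. It lies in the opposite direction over exon bases of GHRL, the ghrelin gene, whose log2 change in sgControl was 1.14. LINC01588 gave 0.84 ± 0.26 and 0.87 ± 0.26.

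Several of these calls did not hold in every fit that left out 1 sample. The LINC01588 call was lost in 4 of 6 sgControl fits and 3 of 6 sgRELA fits that left out a replicate, with adjusted p-values of up to 0.147 and 0.276, and LINC00852 was lost in 2 of 6 with each guide (up to 0.0679 and 0.0973). LINC01237 was lost in 1 and 4 of 6 (0.0803 and up to 0.205). LINC00649 was lost in sgControl without day 7 replicate 3 (0.11) and LINC01550 in sgRELA without day 7 replicate 1 (0.0832). Those of LINC01963, LINC00641 and LINC00342 passed in each of these fits with both guides. All of these are Benjamini-Hochberg adjusted p-values of edgeR's test.

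LINC02275 had the largest fall of all members. In sgControl it was at 13.7, 9.64 and 14.9 CPM on day 5, 5.88, 13 and 15.3 CPM on day 6 and 1.62, 1.63 and 0.75 CPM on day 7. In sgRELA it was at 11.1, 7.398 and 11.8, then 7.55, 8.06 and 9.98, then 0.709, 1.178 and 2.10 CPM. Day 7 lay below every sample of the earlier days with both guides, while days 5 and 6 overlapped. The log2 changes from day 5 were -3.26 ± 0.39 and -2.92 ± 0.39, or 9.58-fold and 7.60-fold lower (adjusted p = 4.6e-07 and 2.43e-06, edgeR). The day 7 samples rest on 18 to 50 counts each. The gene is on chromosome 4 (169917761 to 169975902, minus strand), and MFAP3L, the nearest protein-coding gene, gave -0.32 in sgControl with an adjusted p of 0.423.

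LINC00513, an RNA known to promote interferon signalling, fell between day 6 and day 7. In sgControl it was at 19.3, 21.3 and 18.0 CPM on day 5, 27.2, 34.3 and 26.1 CPM on day 6 and 9.65, 5.26 and 5.65 CPM on day 7. In sgRELA it was at 17.02, 20.4 and 23.6, then 27.6, 20.3 and 27.9, then 9.58, 5.28 and 3.65 CPM. Day 7 lay below all earlier samples with both guides. The change from day 6 was -2.09 ± 0.26 and -2.03 ± 0.27 (adjusted p = 5.73e-07 and 1.2e-06, edgeR), and from day 5 it was -1.51 ± 0.26 and -1.72 ± 0.26. Its promoter window above is the one with the CACGTG palindrome.

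LINC02649, on chromosome 10 (6277687 to 6335982, plus strand), was at 12.2, 8.87 and 7.29 CPM on day 5 and 0.538, 3.64 and 1.42 CPM on day 7 in sgControl. In sgRELA it was at 9.16, 9.28 and 8.42 CPM on day 5 and 2.76, 3.82 and 4.32 CPM on day 7. The log2 changes were -2.34 ± 0.41 and -1.30 ± 0.39. The sgRELA call (adjusted p = 0.0238) was lost in 4 of 6 fits that left out a replicate, with adjusted p-values of up to 0.115, and with library 2 alone the change was -0.38 with an adjusted p of 0.824 (edgeR). Its nearest protein-coding gene, PFKFB3, a glycolytic regulator 132753 bases away, also fell, by 1.24 in sgControl and 1.10 in sgRELA on the log2 scale. LINC01473 fell from 56.3 ± 9.0 to 38.7 ± 2.1 CPM in sgControl and from 50.8 ± 6.1 to 37.6 ± 3.5 CPM in sgRELA (mean ± SD, n = 3). Its adjusted p-values of 0.00518 and 0.0272 (edgeR) rose to as much as 0.0664 and 0.132 when a replicate was left out, with 1 and 4 of 6 calls lost.

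The change of a member was little correlated with that of its nearest neighbour. For 89 pairs of a member and the nearest protein-coding gene that was tested, the Pearson r of the log2 changes lay between -0.08 and 0.05 in the 6 day comparisons, a description across genes that share libraries. For day 7 against day 5, 7 of 20 tested neighbours of called members passed in sgControl and 6 of 20 in sgRELA. All of these went in the direction of the member. For day 7 against day 6, 9 of 26 and 7 of 18 passed, 6 with each guide in the member's direction. For day 6 against day 5, 1 of 22 passed in sgControl, in the opposite direction. In sgRELA 5 of 22 did, 2 of them in the member's direction. Of all genes tested, 13 and 12.4%, 14.6 and 12.2%, and 8.87 and 6.91% passed in these comparisons. Many of those genes are below 5 CPM, so the shares are not matched for level. Of the genes of at least 5 CPM, 13.2% were higher and 12.1% lower for day 7 against day 5 in sgControl, and 12.8 and 11.6% in sgRELA. For day 7 against day 6 they were 17.4 and 11.4%, and 15.4 and 9.12%. For day 6 against day 5 they were 5.96 and 11.8%, and 4.9 and 9.34%. No test compared these shares.

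Long noncoding RNAs with their own names are given for comparison. Of 22 that were tested, 5 rose and none fell from day 5 to day 6 in sgControl, and 1 rose and none fell in sgRELA. From day 6 to day 7, 3 rose and 5 fell in sgControl and 3 rose and 3 fell in sgRELA. LINC-PINT, which is not a member because its symbol carries no digits, fell by 1.94 and 1.77 on the log2 scale from day 6 to day 7. MIR17HG, the host of the miR-17 cluster, rose by 1.495 and 1.32 over the same step.

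Between the guides, few members passed the test. On day 5 no member passed (background 0.138% of all genes tested), on day 6 1 passed (0.214%), and on day 7 none did (0.0907%). With the counts of the 3 days added per guide and replicate number, 2 members passed, beside 0.363% of 28888 genes tested. The replicate numbers did not pair samples across days, so these sums are 1 of several possible groupings. The spread between the sums depends on the grouping, and no other was tried. By edgeR at an unadjusted p under 0.05 there were 10, 9 and 7 members on days 5, 6 and 7, 12 with the days added, and 8 for a day effect differing between guides. In percent of the 109 members these were 9.17, 8.26, 6.42, 11 and 7.34, beside 5.96, 6.07, 4.68, 6.74 and 4.69% of all genes tested. The genes tested include many below 5 CPM, so these shares are not matched for level. No member passed the test of a day effect differing between guides after adjustment, for which 0.00363% of all genes did. DESeq2 gave 0, 1 and 0 members on the 3 days, 2 with the days added and 0 for the differing day effect.

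LINC01215 was the member called on day 6. It was at 16.6, 18.1 and 18.2 CPM in sgControl and at 37.0, 30.6 and 33.4 CPM in sgRELA, with no overlap. This was 1.91-fold higher in sgRELA, or 0.93 ± 0.17 on the log2 scale (adjusted p = 0.00462, edgeR). On day 5 the samples were at 14.1, 16.3 and 13.3 CPM in sgControl and 21.0, 24.1 and 19.9 CPM in sgRELA, without overlap, and the difference of 0.57 ± 0.17 had an adjusted p of 0.467. On day 7 they were at 20.3, 24.8 and 22.0 against 27.2, 21.6 and 19.9 CPM, which overlapped. With days added the values were 17.1, 19.8 and 17.9 CPM against 28.1, 25.2 and 23.5 CPM (0.49 ± 0.10, adjusted p = 0.0364, edgeR).

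The gene lies on chromosome 3 (108125821 to 108138610, plus strand), 33959 bases from the start of CD47, which encodes the "do not eat me" surface protein and gave 0.26 on day 6 and 0.11 with days added (adjusted p = 0.561, edgeR). This neighbour was looked up after the values of LINC01215 were seen. LINC01215 also had the smallest edgeR p of all members for a day effect differing between guides, with an adjusted p of 1, followed by LINC02576 and LINC02809, also with adjusted p-values of 1. LINC02576 rose from 3.46 ± 1.43 to 10.0 ± 1.1 CPM from day 5 to day 6 in sgControl and stood at 6.71 ± 1.29 and 6.67 ± 3.12 CPM in sgRELA. LINC02809 stood at 10.3 ± 3.1 and 8.89 ± 0.59 CPM in sgControl and went from 8.59 ± 0.79 to 16.1 ± 4.6 CPM in sgRELA.

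LINC01934 was called only with the days added. The summed samples were at 25.9, 21.1 and 31.9 CPM in sgControl and 37.1, 38.1 and 37.0 CPM in sgRELA (0.51 ± 0.11 on the log2 scale, adjusted p = 0.0474, edgeR). On day 5 they were at 29.03, 19.6 and 26.5 against 46.3, 40.2 and 38.6 CPM and on day 7 at 21.4, 22.3 and 22.2 against 31.8, 32.8 and 30.5 CPM, with no overlap on either day. On day 6 one sgControl sample stood at 48.7 CPM, above all 3 sgRELA samples (33.3, 41.9 and 42.7 CPM), while the others were at 27.8 and 21.4 CPM. The gene, on chromosome 2 (181086076 to 181409321, plus strand), overlaps exon bases of AC068196.1 on the other strand.

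**Figure D5:**
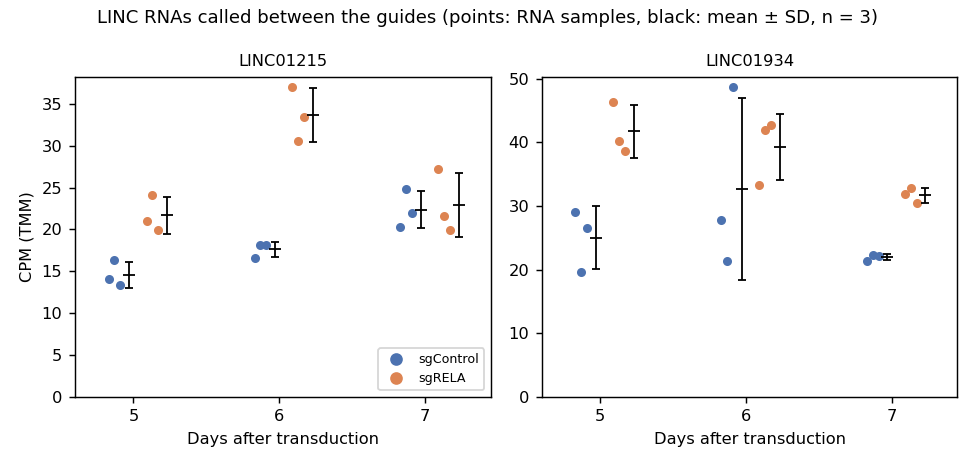
Level of LINC01215 and LINC01934 in CPM after TMM scaling (vertical axes, from 0) by days after transduction, with 1 point per RNA sample, coloured by guide, and mean ± SD of 3 samples in black. LINC01215 separates the guides on days 5 and 6 and not on day 7, and LINC01934 on days 5 and 7 and not on day 6.

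Both guide calls depended on single samples. With the days added, each was lost in 5 of 6 fits that left out a replicate, with adjusted p-values of up to 0.29 for LINC01215 and 0.25 for LINC01934, and with either library of each RNA sample alone (edgeR). The day 6 call of LINC01215 was lost without sgRELA day 6 replicate 1 (0.86 on the log2 scale, adjusted p = 0.0515) and held in the other 5 such fits.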

How the data were processed

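RamDA-seq libraries of 18 RNA samples (2 guides, 3 days, 3 biological replicates) were counted per gene, with 2 library replicates each. The authors deposited raw counts per gene for 36 libraries in 1 table, not normalized. Reads were processed with cutadapt 1.18 and STAR 2.7.9a on GRCh38, per the submitters' processing notes. The counting tool, annotation, strand setting and treatment of multi-mapping reads are not given in the sources used here.

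Ensembl identifiers were matched to symbols (57693 matched). The 2 library replicates of an RNA sample were added, and libraries were scaled by TMM (factors 0.971 to 1.08 per RNA sample). The factors differed by day, at 0.986 to 1.001 on day 5, 1.02 to 1.08 on day 6 and 0.971 to 0.976 on day 7. Tests used edgeR 4.0.16 in R 4.3.3 (glmQLFit and glmQLFTest) on all 18 samples with 6 groups, after filterByExpr, with Benjamini-Hochberg adjustment over all genes tested and a threshold of 0.05. All 109 members passed the filter. Standard errors were derived from the fold change and its F statistic. Levels are TMM-scaled CPM of RNA samples unless a share or library is named. The fit was tested on simulated data, in which 200 of 27553 genes were changed on day 7 in sgControl. The test of day 7 against day 5 recovered 45.5% of them. It recovered 16% at a log2 change of 0.5 in either direction, 32% at 1, 56% at 2 and 78% at 3. Of its calls, 3.19% were false. A gene that was not called can therefore still have changed. The changed genes were drawn from all genes tested, many of them below 5 CPM, and not from the members. The data gave 3585 calls in that comparison, against 200 changed genes in the simulation. These rates therefore do not give the sensitivity for the members.

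Groups came from the sample titles. The numbers of the replicates were checked for pairing across groups: none of 27 correlations of deviations between equally numbered samples exceeded 0.1 (from -0.173 to 0.0859 over 13037 genes), so samples were treated as unpaired. Replicates are separate transductions per the labels' protocols, and whether the days of 1 number come from 1 culture is not stated. The alternatives tried were the DESeq2 1.42.0 test, edgeR with DESeq2's size factors, no filter, each library alone, leaving out each replicate, leaving out 2 RNA samples with a library of few detected genes, a replicate block, other member thresholds (2 and 10 CPM) and members without exon overlap.

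Members named with values were the highest per kb, those nearest the threshold, those with the smallest p among day calls of one sign in both guides, guide calls, the smallest p for a differing day effect, members called on both steps with opposite signs in 1 guide and those with the widest library spread. Others were named after their values were seen. The members, lists and rules were chosen with earlier results of these data known. Coordinates are from GENCODE release 29 and promoters from RefSeq (GRCh38.p14). Intervals and p-values cover the spread between these samples. LINC01882 and LINC02324 are outside the rule and not analysed here.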

Additional observations from a re-analysis of the deposited data

How the results depend on the processing

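No named result reversed its direction under any alternative. With DESeq2's size factors, no filter, DESeq2 as the test, or the replicate block, the counts of members called for the 6 day comparisons stayed within 1.5 times of the values above. Under the replicate block they were 25, 21, 32, 21, 22 and 24 in the order day 6 against 5, day 7 against 6 and day 7 against 5, sgControl before sgRELA. Numbers did not pair samples, so the block is only a description.

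With 1 library per RNA sample fewer members were called. Each such fit has less depth per sample, and the share of all genes called in it is not given here. A drop particular to the members therefore cannot be read from these fits. With library 1 alone 6 and 4 members were called for day 6 against day 5, 8 and 6 for day 7 against day 6 and 5 and 5 for day 7 against day 5 (sgControl and sgRELA), and with library 2 alone 14 and 8, 14 and 13, and 16 and 11. Among members without exon overlap, 15 were called for day 6 against day 5 in sgControl.

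When each replicate was left out, the counts ran from 18 to 23 and 13 to 18 for day 6 against day 5, from 20 to 26 and 16 to 18 for day 7 against day 6 and from 16 to 23 and 15 to 21 for day 7 against day 5. The lowest for sgRELA on day 6 against day 5 came without sgRELA day 6 replicate 2, that for sgControl on day 7 against day 6 without sgControl day 7 replicate 1 or 2, and that for sgRELA on day 7 against day 5 without sgRELA day 5 replicate 2 or 3 or day 7 replicate 2. Of the members called with both guides, 7 of 15, 6 of 16 and 5 of 14 passed in each such fit. Of 55 calls of named members, 37 held under each such fit and 18 were lost under at least 1.

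For the guides, no filter gave 1 member on day 5. Either library alone gave 0 members on day 6 and 0 with the days added, and leaving out a replicate gave 0 to 1 in both. Leaving out the 2 RNA samples with few detected genes gave 0 with the days added, and members without exon overlap gave 1. The causes were not tested.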
